A study of Mus musculus with 35 samples.

Results

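Chromatin accessibility of E10.5 pre-HSC II was compared with that of E10.5 hemogenic endothelium (HE) over all 76018 peaks of a deposited ATAC-seq count table. The comparison takes 8 of the 35 libraries of the study: 4 of pre-HSC II and 4 of HE. In this assay a transposase cuts DNA and adds adapters where chromatin is not wrapped tightly, so the number of reads in a peak grows with how open it is. The study as a whole covers 9 populations of the endothelial-to-hematopoietic transition between E8.5 and E10.5 (days of mouse gestation). Pools of 1500 sorted cells were used, with 13 PCR cycles per library.

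Pre-HSC II and HE cells came from the same labelled tissue, E10.5 AGM+VU, which is the aorta-gonad-mesonephros region with the vitelline and umbilical arteries. All embryos of these groups carried the 23GFP transgene, a reporter in which a Runx1 enhancer drives GFP, and no other genotype or treatment is labelled. The other groups used below have the same transgene: E10.5 pre-HSC I and E10.5 endothelial cells (EC) from E10.5 AGM+VU, and E9.5 pro-HSC/HPC, E9.5 HE and E9.5 EC, where HPC stands for hematopoietic progenitor cell. For the E9.5 groups the labelled tissue is one of E8.5, and the day given here is that of their titles. The labels give neither the sort gates nor the number of embryos or litters behind a pool, so the replicates are separate pools of unstated origin. The p-values measure the spread between pools of a group, estimated over all 9 groups of the study and not from the compared pools alone. Between pairs of HE pools, chi-square divided by its degrees of freedom was 4.04 to 8.04, and between pairs of pre-HSC II pools 3.33 to 3.84. This measure also grows with depth. A spread estimated over all groups may be too small for HE.

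As background, definitive blood stem cells arise in the embryo from a small set of endothelial cells in the walls of the large arteries. Hemogenic endothelium still sits in the vessel wall and has endothelial form, while its descendants round up, leave the wall and pass through pre-HSC I and then pre-HSC II. Pre-HSC II cells carry the pan-leukocyte surface protein CD45 and are the last named stage before a transplantable stem cell. The comparison therefore spans the whole way from vessel wall cell to blood precursor within one day of development. The peaks carry no gene names in the files used here and no mouse genome of build mm9 was used, so peaks are named by their mm9 positions as the table writes them. Population labels were not checked against marker genes.

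The 4 pre-HSC II libraries held 456770, 668956, 701221 and 1241216 counts in peaks, against 1215458, 3115691, 3690523 and 1101787 in HE libraries 1 to 4. Of all peaks, 13.6% to 34.6% had no count in a pre-HSC II library and 6.08% to 19.2% in an HE library. A count of 3 stood for 6.57 CPM of its total (CPM is counts scaled to 1000000 per library) in pre-HSC II library 1, the shallowest of the 8, and for 0.813 CPM in HE library 3, the deepest. The tenth of peaks with most counts took 53.9% ± 1.56 of a pre-HSC II library's counts and 59.2% ± 5.58 of an HE library's (SD, n = 4 each), with HE library 3 at 65.6% and HE library 4 at 52.0%. Across peaks, log2 CPM correlated at Pearson r 0.606 to 0.706 among pre-HSC II libraries, at 0.696 to 0.906 among HE libraries and at 0.539 to 0.689 between the groups, where peaks share depth effects and are not independent replicates. HE libraries 2 and 3 were both the deepest and the most alike. Depth was greater on average in HE, though pre-HSC II library 4 was deeper than HE libraries 1 and 4. With every library thinned to 456770 counts, 20700 peaks passed the count filter, and 1755 of them (8.48%) were called higher and 2212 (10.7%) lower in pre-HSC II.

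Pre-HSC II and HE differed at 11979 of 67131 tested peaks, which is 17.8% (edgeR's quasi-likelihood test, Benjamini-Hochberg adjusted p of 0.05). Of these, 4115 peaks (6.13% of those tested) were more open in pre-HSC II and 7864 (11.7%) were less open. The higher peaks had a median log2 fold change of 2.71 (interquartile range 1.91 to 3.63), and the lower peaks one of -1.84 (-2.74 to -1.13). These sizes are of peaks that passed the test, which at low levels takes a larger change, so they are not set against each other. A change of at least 4-fold was fitted at 2981 higher peaks (72.4%) and at 3531 lower peaks (44.9%), or at 2980 and 3253 where peaks without counts in one group are set at their bounds, with medians of 2.71 and -1.76. Without HE library 3, 7876 peaks were called, 2775 higher and 5101 lower, and in a fit of the 8 compared libraries alone 5224, 2374 higher and 2850 lower. The libraries are bulk pools, so more cells with an open region and a more open region in each cell cannot be told apart.

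The 2 lists lay at different levels in HE, which follows in part from their choice by these same libraries. Higher peaks were nearly closed in HE: their median level was 14.5 CPM in pre-HSC II and 2.03 CPM in HE, or 29.9 and 4.24 CPM per kb of peak. Lower peaks were well open in HE: their median level was 5.67 CPM in pre-HSC II and 21.8 CPM in HE, or 6.16 and 24.4 CPM per kb. Over all tested peaks the medians were 5.41 CPM in pre-HSC II and 5.22 CPM in HE. The CPM of the 4 pre-HSC II libraries did not overlap that of the 4 HE libraries at 2736 of the higher peaks (66.5%) and at 4001 of the lower ones (50.9%). Among all tested peaks, 5.55% lay wholly above HE in this way and 7.57% wholly below.

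At some called peaks one group had no counts at all. Of all 67131 tested peaks, 129 had no counts in HE and 1050 had none in pre-HSC II. HE had none at 97 of the higher peaks, where pre-HSC II held 5 to 104 counts in total (median 23). Against a floor of 3 counts over the HE group, these peaks were at least 3.94-fold to at least 82.0-fold higher in pre-HSC II (median of the bounds 18.1). Pre-HSC II had no counts at 649 of the lower peaks, where HE held 14 to 280 counts (median 31), and these were at least 1.97-fold to at least 39.5-fold lower (median of the bounds 4.37). Such a bound is limited by the depth of the group without counts, which is the smaller in pre-HSC II.

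How the 11979 calls divide between gains and losses depended on the scaling of the libraries. The median log2 fold change of all tested peaks was -0.16 with the TMM factors used here, 0.06 with RLE size factors, 0.12 with total counts and 0.17 with cyclic loess offsets. The calls split into 4115 higher and 7864 lower with TMM, 5311 and 5414 with RLE, 5693 and 4781 with total counts, and 6556 and 4032 with cyclic loess. Which list is longer is therefore not settled by these counts. Of the 4115 higher and 7864 lower peaks, cyclic loess called 98.1% and 51.2% in the same direction. A fit of the 2 groups alone called 57.1% and 36.2% of them, and the thinned libraries 28.3% and 27.9%, there with 20700 peaks left to test.

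The scalings differed most at the highly covered peaks. In the tested peaks divided into 5 classes of equal size by mean level, the median log2 fold change with TMM was -0.40, -0.03, 0.12, 0.02 and -0.38, low to high. In the class with the highest level, above 13.2 CPM, 4.13% of peaks were called higher and 24.95% lower. The median of that class was -0.14 with RLE, -0.077 with total counts, 0.14 with cyclic loess and -0.024 after every library was thinned to 456770 counts. Its direction flips under cyclic loess, so a general loss of openness at strong peaks is not shown by these counts.

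**Figure D1:**
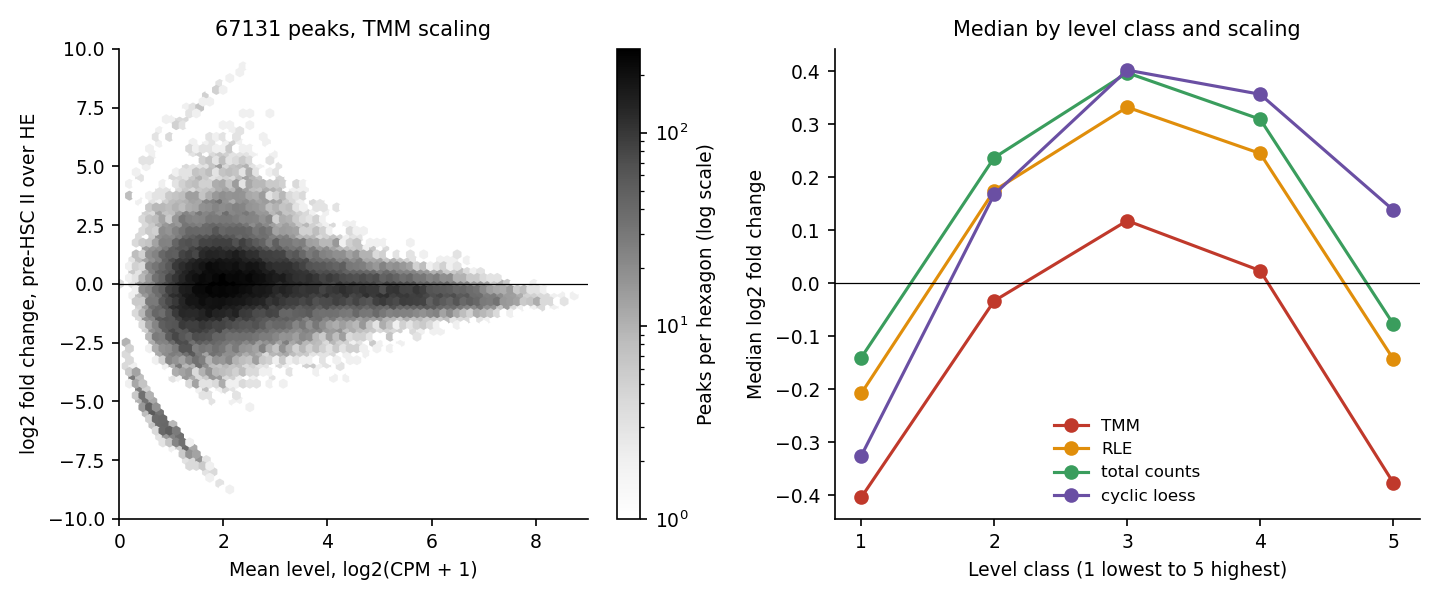
Left, log2 fold change of pre-HSC II over HE (vertical axis) against mean level in log2 CPM for the 67131 tested peaks, shaded by the number of peaks. Right, the median log2 fold change in each of the 5 level classes under TMM, RLE, total-count and cyclic loess scaling, where the class with the highest level lies at -0.38 with TMM and at 0.14 with cyclic loess.

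Among the leading higher peaks, the 12 with the smallest adjusted p whose libraries did not overlap, fitted changes were at least 9.04-fold and adjusted p was between 7.50e-10 and 9.18e-08. They lay on 8 chromosomes and were 308 to 1093 bp wide. The first, chr14:115345130-115346137, had 64.6, 111, 60.9 and 42.3 CPM in pre-HSC II libraries 1 to 4, against 6.44, 1.36, 4.68 and 1.61 CPM in HE libraries 1 to 4. Every pre-HSC II library lay far above the highest HE library (log2 fold change 4.33 ± 0.47 SE, edgeR adjusted p 7.50e-10).

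The peak chr3:20203461-20204226 was the most even of this set in pre-HSC II, at 57.6, 60.1, 45.4 and 49.03 CPM, against 1.61, 4.43, 4.02 and 0 CPM in HE (log2 fold change 4.14 ± 0.51 SE, edgeR adjusted p 1.58e-08). The widest, chr11:93682619-93683712, had 52.4, 78.9, 105 and 84.7 CPM in pre-HSC II, against 1.61, 10.2, 12.7 and 8.87 CPM in HE (log2 fold change 3.18 ± 0.39 SE, edgeR adjusted p 1.70e-08). It was the one most open in HE, and the groups were still well apart. The peak chr5:39323596-39324533 had 62.8, 25.1, 62.1 and 44.6 CPM in pre-HSC II, against 1.61, 3.40, 2.68 and 3.23 CPM in HE. Its spread lay within pre-HSC II, while HE stayed low in all 4 libraries.

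HE had no counts at 2 of these 12 peaks. At chr1:177454914-177455363, pre-HSC II libraries had 38.4, 25.1, 31.0 and 26.7 CPM, 104 counts in all, and no HE library had a count. The peak was at least 82.0-fold higher in pre-HSC II. At chr19:34919090-34919723, pre-HSC II had 3.49, 42.6, 22.7 and 23.8 CPM, 87 counts in all, and HE had none, which makes it at least 68.6-fold higher. Pre-HSC II library 1 was low there, at a level that stands for fewer than 3 counts.

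A pair of peaks 117 kb apart on chromosome 1 showed like values. At chr1:175817338-175817842, pre-HSC II libraries had 57.6, 45.1, 45.4 and 37.1 CPM, against 1.61, 0, 0 and 0 CPM in HE. At chr1:175934645-175935168, they had 62.8, 40.1, 43.0 and 30.5 CPM, against 1.61, 0, 0 and 0 CPM in HE. The ratio of the groups' summed counts, scaled for depth, was 186 (exact 95% counting interval 50.6 to 1547) at the first and 171 (46.6 to 1429) at the second. Both were low in E10.5 pre-HSC I, at 3.98 ± 1.41 CPM at the first and 4.59 ± 0.881 CPM at the second (SD, n = 3).

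The remaining 4 leading higher peaks had 0 to 1.61 CPM in every HE library. At chr1:84911569-84912164, pre-HSC II had 40.1, 40.1, 52.5 and 19.3 CPM, against 0, 0.681, 0.669 and 0 CPM in HE. At chr1:146622283-146622862, pre-HSC II had 41.9, 37.6, 28.7 and 33.4 CPM, against 0, 0.681, 0 and 1.61 CPM in HE. At chr15:103284006-103284428, pre-HSC II had 20.9, 53.9, 40.6 and 32.7 CPM, against 0, 0.681, 0.669 and 0 CPM in HE. The narrowest, chr8:129281881-129282189, had a ratio of 119 (exact 95% counting interval 32.2 to 999.8), with 29.7, 18.8, 29.9 and 32.7 CPM in pre-HSC II and 0, 0.681, 0 and 0 CPM in HE.

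**Figure D2:**
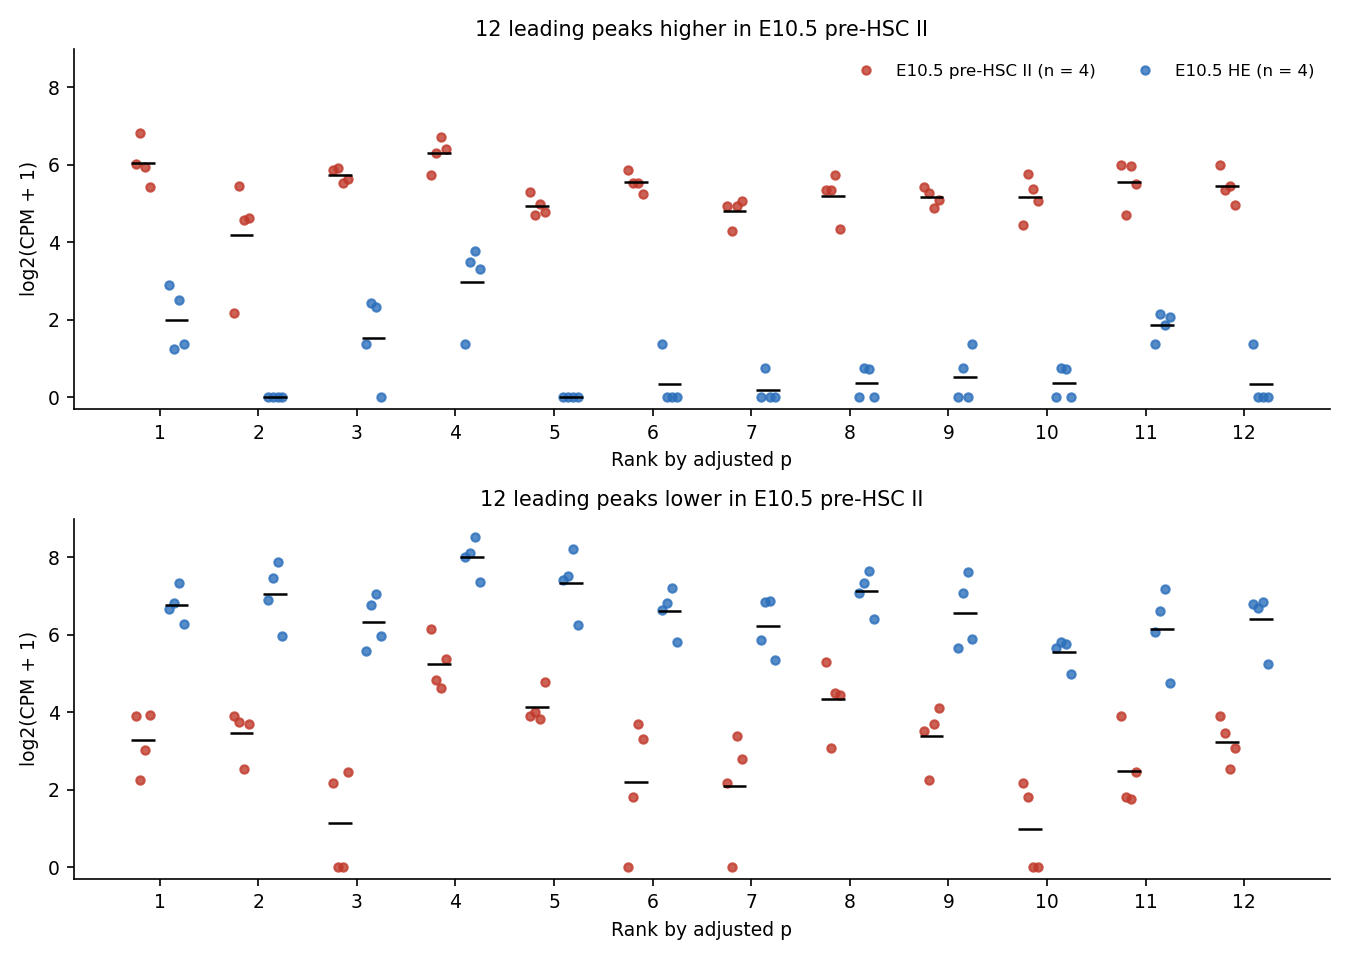
Level of the 12 leading higher and 12 leading lower peaks in each library of pre-HSC II and HE, in log2(CPM + 1) with peaks ordered by adjusted p. Points are libraries and black lines the mean of 4 libraries, and the groups do not overlap at any of the 24 peaks because that was required of them.

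The 12 leading lower peaks were wider, at 1003 to 2703 bp, and well open in HE, with group means of 1.50 to 40.5 CPM in pre-HSC II and 47.0 to 265 CPM in HE. Their fitted changes were at least 6.73-fold and adjusted p was between 1.28e-12 and 9.73e-11. The first, chr10:74826194-74828242, had 14.0, 3.76, 7.17 and 14.1 CPM in pre-HSC II, against 101, 112, 161 and 76.6 CPM in HE (log2 fold change -3.51 ± 0.30 SE, edgeR adjusted p 1.28e-12). The second, chr17:10582608-10584086, had 14.0, 12.5, 4.78 and 11.9 CPM in pre-HSC II, against 119, 176, 235 and 62.1 CPM in HE (log2 fold change -3.80 ± 0.33 SE, edgeR adjusted p 1.30e-12). In both, HE library 4 was the lowest of its group and HE library 3 the highest.

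The most complete losses of this set were at 2 peaks without counts in several pre-HSC II libraries. At chr18:60820717-60821920, pre-HSC II had 3.49, 0, 0 and 4.46 CPM, against 46.7, 108, 132 and 62.1 CPM in HE (log2 fold change -5.30 ± 0.47 SE, edgeR adjusted p 1.75e-12). At chr15:36419295-36420387, pre-HSC II had 3.49, 2.51, 0 and 0 CPM, against 49.1, 55.2, 53.2 and 30.6 CPM in HE (log2 fold change -5.32 ± 0.54 SE, edgeR adjusted p 9.03e-11). The values above 0 in pre-HSC II stand for a few counts each.

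A pair of leading lower peaks lay 193 kb apart on chromosome 8. At chr8:8993780-8995516, pre-HSC II had 14.0, 15.0, 13.1 and 26.7 CPM, against 169, 181, 296 and 75.0 CPM in HE. At chr8:8801089-8802593, pre-HSC II had 3.49, 0, 9.55 and 5.94 CPM, against 57.2, 114, 116 and 39.5 CPM in HE. The widest of the 12, chr12:59368202-59370905, had 69.8, 27.6, 23.9 and 40.9 CPM in pre-HSC II, against 258, 274, 366 and 164 CPM in HE, so it was reduced but still open (log2 fold change -2.75 ± 0.25 SE, edgeR adjusted p 3.75e-12).

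The most open called peaks were named by mean level with no required size of change, so their changes are not set against those above. The highest by mean level among called higher peaks without overlap was chr2:149961793-149963276, with 257, 237, 136 and 137 CPM in pre-HSC II, against 134, 80.7, 72.3 and 54.0 CPM in HE (log2 fold change 1.17 ± 0.25 SE, edgeR adjusted p 0.000542). Pre-HSC II libraries 3 and 4 were close to HE library 1 there. Among called lower peaks it was chr9:56919120-56925524, a peak 6404 bp wide, with 189, 190.4, 265 and 349 CPM in pre-HSC II, against 372, 527, 939 and 385 CPM in HE (log2 fold change -1.16 ± 0.23 SE, edgeR adjusted p 0.000156). Pre-HSC II library 4 came near to HE libraries 1 and 4.

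Gains and losses differed in the width of the peaks they fell on. The median width was 519 bp for higher peaks, 952 bp for lower peaks and 547 bp for all tested peaks. Of 29682 peaks narrower than 500 bp, 6.58% were called higher and 4.50% lower. Of 23679 peaks of 500 to under 1000 bp, 7.27% were higher and 11.98% lower. Of 11563 peaks of 1000 to under 2000 bp, 3.46% were higher and 24.1% lower. Of the 2207 peaks of at least 2000 bp, 40 (1.81%) were higher and 908 (41.1%) lower. These wide peaks stayed open in both groups, with a median level of 57.8 CPM in pre-HSC II and 84.9 CPM in HE.

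The losses at wide peaks rested on the scaling. With cyclic loess, 302 of the 2207 wide peaks (13.7%) were higher and 217 (9.83%) lower. With TMM, width still went with losses among peaks of the highest level class: 41.4% of those of at least 2000 bp and 21.8% of the narrower ones were lower. Whether wide peaks were less open in pre-HSC II than in HE cannot be told apart from the choice of scaling.

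**Figure D3:**
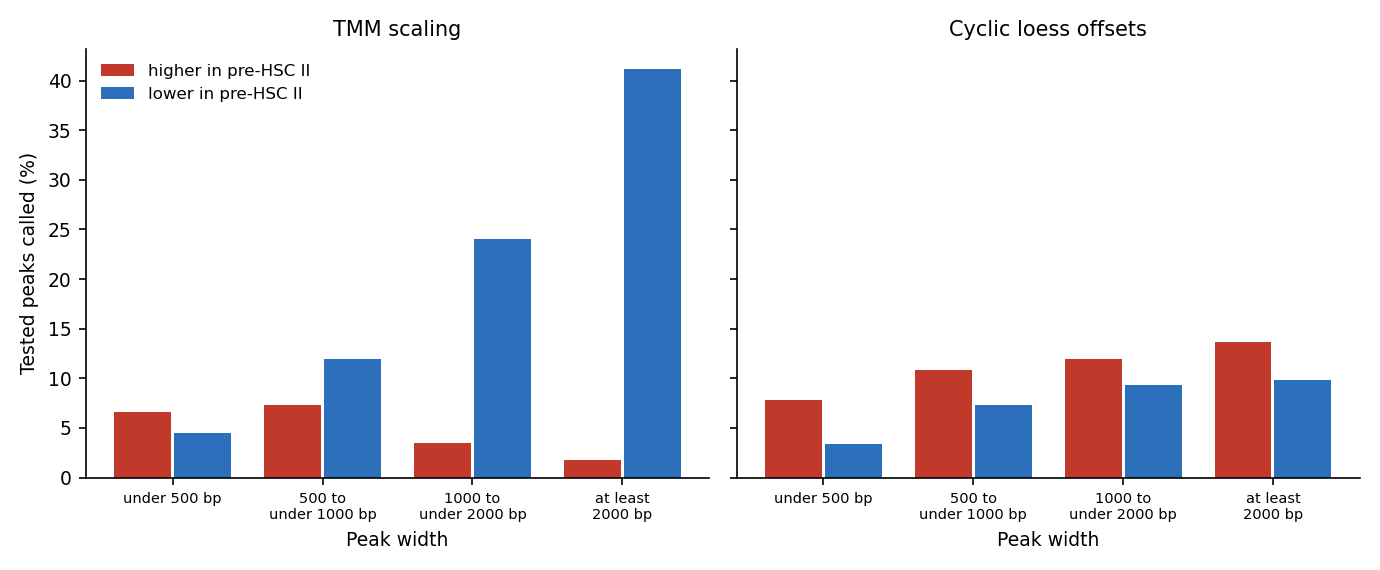
Percent of tested peaks called higher and lower in pre-HSC II than in HE by peak width in bp, with TMM scaling in one panel and cyclic loess in the other. The share called lower climbs to 41.1% in peaks of at least 2000 bp with TMM and is 9.83% there with cyclic loess.

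More of the called peaks than of all tested peaks had a nearest peak called the same way, though most did not. These shares were not matched for level or width. The nearest tested peak was called higher for 14.5% of the higher peaks, against 6.18% of all tested peaks, and called lower for 18.8% of the lower peaks, against 11.8% of all. The nearest peak was called the opposite way for 6.37% of the higher and 3.43% of the lower peaks. By chromosome, leaving out Y with its 9 tested peaks, calls higher in pre-HSC II made up between 3.95% of tested peaks (chromosome 19) and 8.93% (chromosome 1), and calls lower between 9.17% (chromosome 1) and 15.3% (chromosome 19). On chromosome X they were 4.26% and 10.4%.

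Some 250 kb windows held many called peaks. Of 6613 windows with at least 3 tested peaks, 313 held at least 3 higher peaks, 986 at least 3 lower ones and 53 both. The window with most gains, chr1:146000001-146250000, held 15 tested peaks, of which 11 were called higher and 0 lower, and the libraries did not overlap at any of the 11. Their log2 fold changes ran between 1.47 and 5.23 (median 4.02). Summed over these 11 called peaks alone, the levels were 335, 278, 196 and 188 CPM in pre-HSC II libraries, against 45.1, 26.6, 21.4 and 18.5 CPM in HE. The same sum averaged 65.8 CPM in E10.5 pre-HSC I and 13.5 CPM in E10.5 EC, and at E9.5 51.2 CPM in pro-HSC/HPC and 11.8 CPM in HE.

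The other windows with many gains were mixed. In chr5:125750001-126000000, 9 of 33 tested peaks were higher and 2 lower. The sums over the 9 were 155, 286, 168 and 198 CPM in pre-HSC II, against 47.5, 30.6, 34.5 and 55.6 CPM in HE. In chr16:89750001-90000000, 8 of 20 were higher and 1 lower. The sums over the 8 were 124, 241, 109 and 146 CPM in pre-HSC II, against 45.9, 54.5, 35.8 and 41.1 CPM in HE. Pre-HSC II library 2 was the highest of its group in both windows. Over the 8 peaks of the chromosome 16 window, E10.5 HE had the lowest mean sum of all groups, at 44.3 CPM. Pre-HSC II averaged 155 CPM there. Mean sums for E9.5 were 102 (HE), 104 (EC) and 114 CPM (pro-HSC/HPC), and for E8.5 101 (EC) and 144 CPM (HE). E10.5 EC stood at 60.2 and pre-HSC I at 87.6 CPM. Over the 9 peaks of the chromosome 5 window, pre-HSC II averaged 202 CPM and every other group 88.0 CPM or less.

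The windows with most losses were dense in peaks, and their sums cover only the peaks called lower. In chr18:38250001-38500000, 16 of 38 tested peaks were lower and 0 higher, with sums of 208, 96.5, 198 and 245 CPM in pre-HSC II, against 428, 642, 712 and 407 CPM in HE. In chr3:89000001-89250000, 16 of 42 were lower and 0 higher, with 143, 218, 295 and 354 CPM in pre-HSC II, against 453, 691, 937 and 442 CPM in HE. In chr9:32250001-32500000, 15 of 40 were lower and 2 higher, with 189, 115, 186 and 196 CPM in pre-HSC II, against 283, 545, 857 and 341 CPM in HE. The sums of the groups did not overlap in any of these 6 windows, but single called peaks often did. The libraries did not overlap at 7 of the 9 higher peaks of the chromosome 5 window and 5 of the 8 of the chromosome 16 window. In the windows on chromosomes 18, 3 and 9 this held at 6 of 16, 5 of 16 and 5 of 15 lower peaks. Both the windows and the summed peaks were chosen by their calls, so the separation of the sums is no further result. Peaks not called, or called the opposite way, are left out of the sums.

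Pre-HSC I, whose libraries entered the count filter, the scaling and the estimate of spread but not the contrast that made the calls, lay between HE and pre-HSC II at most of the called peaks. Its mean log2(CPM + 1) was between those of HE and pre-HSC II at 89.2% of the higher peaks and 77.9% of the lower ones. The calls choose peaks where HE and pre-HSC II lie apart, so any other group may fall between them through that choice. E10.5 EC, as a baseline, was between them at 56.7% of the higher and 43.8% of the lower peaks. The difference in share between pre-HSC I and EC was not tested, and these shares alone do not show an intermediate stage. The median over the higher list was 3.77 to 4.21 in pre-HSC II libraries, against 1.23 to 1.77 in HE libraries, with the pre-HSC I samples at 1.83, 3.10 and 2.37. Over the lower list it was 2.53 to 2.94 in pre-HSC II, against 4.10 to 4.86 in HE, and averaged 4.08 in pre-HSC I. Over all tested peaks the group averages ran between 2.52 in pre-HSC II and 2.80.

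At the median higher peak, pre-HSC I had come 41.5% of the way between HE and pre-HSC II on the log2(CPM + 1) scale, and at the median lower peak 17.6%. The pre-HSC I samples differed: for higher peaks they stood at 23.5%, 69.7% and 36.4% of the way, and for lower peaks at 8.11%, 15.3% and 24.4%. With total counts the values were 36.6% for higher and 19.9% for lower peaks, and with RLE size factors 34.99% and 24.1%. Each sample stood further along at the higher than at the lower peaks with each of these scalings, though library 1 only at 18.3% against 15.3% with RLE. E10.5 EC had the same order, at 5.21% for higher and -4.77% for lower peaks with TMM. Its values were 2.90% and 0.674% with total counts, and 3.25% and -0.475% with RLE. The difference between higher and lower peaks was not tested, and the pre-HSC I sample at 69.7% is the mean of 2 libraries whose counts agree within sampling noise.

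E10.5 HE stood close to EC in both lists. For the higher list the average of the library medians was 1.45 in HE and 1.59 in EC, and for the lower list it was 4.48 in HE and 4.69 in EC. EC lay on the far side of HE from pre-HSC II at 41.6% of the higher peaks and 55.9% of the lower ones. At 36.5% of the higher and 39.9% of the lower peaks the 4 groups EC, HE, pre-HSC I and pre-HSC II followed in order of level.

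**Figure D4:**
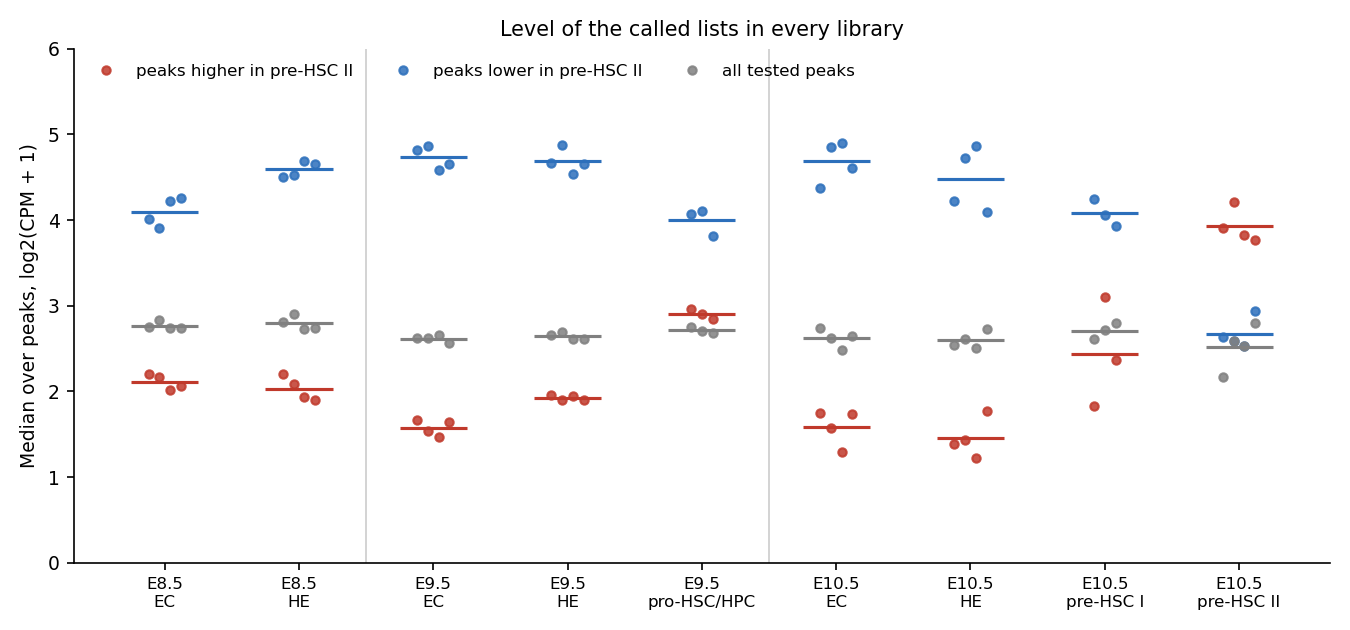
Median log2(CPM + 1) over the higher peaks, the lower peaks and all tested peaks in each library, by group and day. The higher list lies at 3.77 to 4.21 in pre-HSC II and at 1.23 to 1.77 in E10.5 HE, and the lower list at 2.53 to 2.94 and at 4.10 to 4.86.

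A step out of HE a day earlier, E9.5 pro-HSC/HPC against E9.5 HE, shares no library with the E10.5 comparison. It ends in another population, and its libraries entered the same count filter, scaling and estimate of spread. In that comparison 1.74% of tested peaks were called: 431 (0.642%) higher and 734 (1.09%) lower in pro-HSC/HPC. The peaks higher in pre-HSC II had a median log2 fold change of 1.12 at E9.5, with 89.7% above 0, and 349 of them were called higher and 1 lower. The peaks lower in pre-HSC II had a median of -0.53, with 88.9% below 0, and 521 of them were called lower and 0 higher. Over all tested peaks the E9.5 median was 0.02, with 51.3% above 0.

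Most E9.5 calls were also called at E10.5. Of the 431 higher peaks, 349 (81.0%) were higher in pre-HSC II than in HE, and of the 734 lower peaks, 521 (71.0%) were lower. The median log2 fold change of the 431 was 3.02 at E10.5 and 2.69 at E9.5, and that of the 734 was -1.95 at E10.5 and -1.67 at E9.5, where the E9.5 values chose the peaks. As shares of the longer E10.5 lists, 349 is 8.48% of the 4115 higher and 521 is 6.63% of the 7864 lower peaks. In a fit without the shallow E10.5 HE libraries 1 and 4, which also calls more peaks at E9.5, the shared counts were 540 higher and 1062 lower. With the compared groups fitted alone they were 294 and 119, and after thinning 66 and 110.

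The leading peaks followed the same directions at E9.5. All 12 leading higher and all 12 leading lower peaks had the same sign there, and 7 and 8 of them passed the test. Of all tested peaks, 0.642% were called higher and 1.09% lower at E9.5. The E9.5 change was not called at chr17:10582608-10584086, for example (log2 fold change -0.63 ± 0.27 SE, edgeR adjusted p 0.259). At chr14:115345130-115346137, E9.5 pro-HSC/HPC libraries had 27.8, 21.2 and 40.1 CPM, against 5.03, 5.78, 2.28 and 5.48 CPM in E9.5 HE. At chr10:74826194-74828242, they had 37.8, 31.4 and 39.3 CPM, against 122, 121, 98.7 and 121 CPM in E9.5 HE. The groups did not overlap at chr14:115345130-115346137 or at chr10:74826194-74828242. The E10.5 change was the larger at chr10:74826194-74828242 in the interaction test (edgeR adjusted p 0.0184), while at chr14:115345130-115346137 the difference of 1.74 ± 0.64 SE did not pass it (edgeR adjusted p 0.243). Of the leading peaks, 3 of the 12 higher and all 12 lower ones passed the interaction test, each with the larger change at E10.5. They were chosen by their E10.5 change, so these numbers are not independent of that choice.

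**Figure D5:**
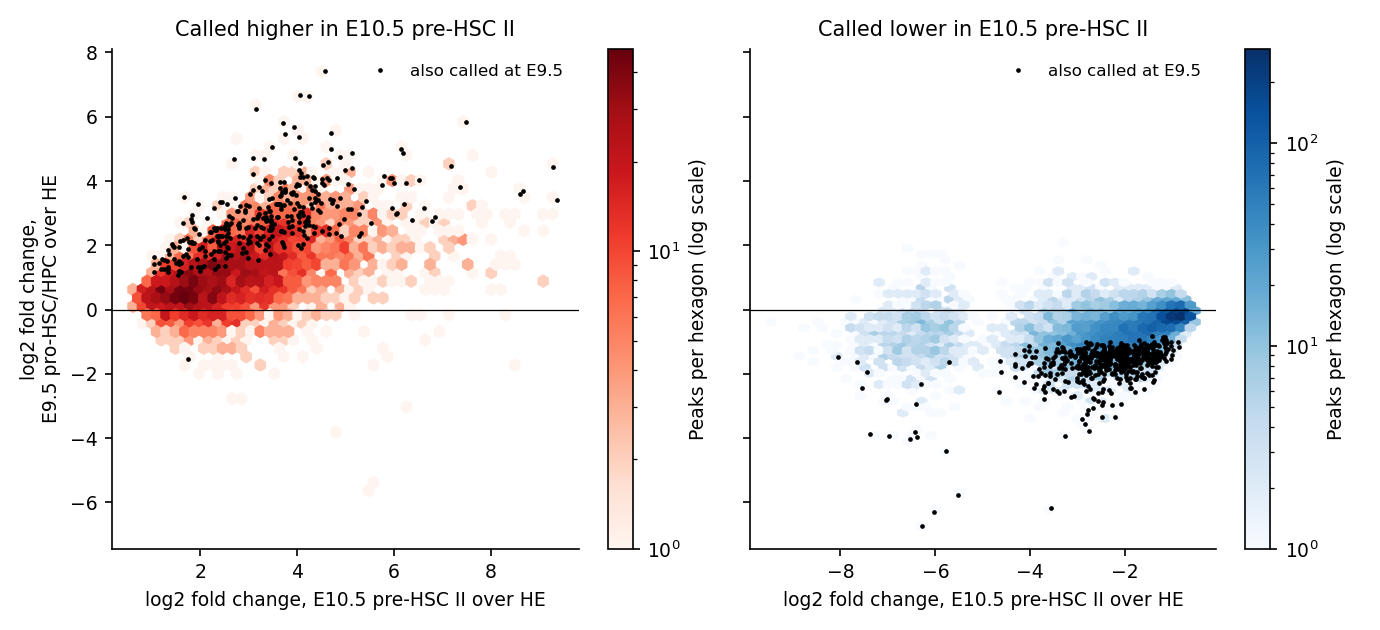
Log2 fold change of E10.5 pre-HSC II over HE (horizontal axis) against that of E9.5 pro-HSC/HPC over HE (vertical axis) for the called E10.5 peaks, with peaks also called at E9.5 in black. Of the 4115 higher peaks 89.7% lie above 0 on the vertical axis, and of the 7864 lower peaks 88.9% lie below it.

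The change at E10.5 differed from that at E9.5 at 219 peaks (0.326%) in a test of the difference itself, an interaction term of the same fit. It was more positive at E10.5 at 46 peaks (0.0685%), of which 41 were called higher in pre-HSC II, and more negative at 173 (0.258%), all of which were called lower. For the 173, the median log2 fold change was -3.52 at E10.5 (-3.36 with the 31 that had no counts in pre-HSC II at their bounds) and -0.51 at E9.5, and 17 of them were called lower at E9.5. The number is poorly fixed: it was 109 without pre-HSC II library 2, 640 without pre-HSC II library 4, and 352, 129, 77 and 571 without E10.5 HE libraries 1, 2, 3 and 4 in turn. Among the E9.5 libraries it was 118 without pro-HSC/HPC library 1, 43 without pro-HSC/HPC library 2, 121 without HE library 1 and 111 without HE library 3. The step at E9.5 ends in pro-HSC/HPC and that at E10.5 in pre-HSC II, so day, labelled tissue and population cannot be told apart.

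Among these, chr11:64953693-64954393 had 0 CPM in all 4 pre-HSC II libraries, against 41.9, 38.5, 31.8 and 16.1 CPM in HE, 280 counts in all. It was at least 39.5-fold lower in pre-HSC II. At E9.5 it had 14.7, 15.2 and 6.17 CPM in pro-HSC/HPC, against 17.7, 16.9, 12.6 and 13.7 CPM in HE, where the groups overlap. The interaction there had an adjusted p of 5.82e-05 in edgeR's quasi-likelihood test.

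One peak was called in opposite directions. At chr3:148425106-148426455, pre-HSC II had 20.9, 22.5, 14.3 and 22.3 CPM, against 1.61, 12.6, 2.68 and 4.84 CPM in E10.5 HE (log2 fold change 1.75 ± 0.40 SE, edgeR adjusted p 0.00119). At E9.5, pro-HSC/HPC had 15.2, 10.2 and 8.48 CPM, against 31.5, 35.5, 39.4 and 30.6 CPM in HE (log2 fold change -1.54 ± 0.37 SE, edgeR adjusted p 0.0164). The groups did not overlap on either day, and the log2 fold changes differed by 3.29 ± 0.55 SE (edgeR adjusted p 0.000810). E10.5 EC had 8.48 to 14.3 CPM there, above 3 of the 4 HE libraries of that day.

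The comparison of E10.5 pre-HSC I with E10.5 EC also shares no library with that of pre-HSC II and HE. It called 5.93% of tested peaks, 1464 (2.18%) higher and 2520 (3.75%) lower in pre-HSC I. The higher list had a median log2 fold change of 1.13 there, with 715 peaks higher and 15 lower, and the lower list one of -0.34, with 66 higher and 1105 lower. All tested peaks had a median of 0.04. An earlier step of the transition, E9.5 HE against E9.5 EC, called 2.58%, with 912 peaks (1.36%) higher and 821 (1.22%) lower in HE. There the higher list had a median of 0.27, with 108 peaks higher and 28 lower, and the lower list one of 0.03, with 347 higher and 268 lower, against 0.05 over all tested peaks. Calls of that earlier step in either direction were more frequent in the lower list than over all tested peaks, with 4.41% of its peaks higher and 3.41% lower in HE, and the difference in share was not tested.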

How the data were processed

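Raw read counts per peak, not normalized, were deposited by the authors in 1 table for 76018 peaks (median width 496 bp, 55 to 8256 bp) and 35 libraries. Per the submitters' processing notes, DiffBind 1.14.6, MACS2 2.0.1, Bowtie 1.0.0, Trim Galore 0.3.1, deepTools, bedtools 2.17.0 and SAMtools were used with build mm9. Their roles and settings, such as read filters or a shift to the transposase's cut, are not given in the sources used here, nor is whether positions start at 0 or 1.

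Libraries 2 and 3 of pre-HSC I had counts closer than sampling noise (chi-square divided by its degrees of freedom 0.461, while the other 50 pairs of replicates gave 2.59 to 8.04), so their rounded mean was counted as 1 sample. filterByExpr by group left 67131 peaks and removed 8887. edgeR 4.0.16 (glmQLFit and glmQLFTest, two-sided, TMM) was run in 1 fit of 34 samples with 1 mean for each group (common dispersion 0.147, 25 residual degrees of freedom). The threshold was 0.05 on the Benjamini-Hochberg adjusted p, and an SE is the absolute log2 fold change over the square root of F. CPM uses TMM-adjusted library sizes, and levels of lists use a pseudocount of 1. DESeq2 1.42.0 and limma 3.58.1 (R 4.3.3) served the alternatives, and matplotlib 3.10.9, scipy 1.17.1, pandas 2.3.3 and numpy 2.4.6 (Python 3.11.15) the summaries. The fit was also run on simulated counts with few changed peaks, equal in number up and down, and the same dispersion for all. Such counts cannot test the scaling or an unequal spread of the groups.

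The comparison, lists and rules were chosen with earlier results of these data known. Named are, per direction, the 12 called peaks of smallest adjusted p that changed by 1 or more on the log2 scale and whose libraries did not overlap, the 3 called peaks without overlap of highest mean CPM, the 4 peaks of smallest adjusted p in the interaction, and the 3 windows of 250 kb with most called peaks. The text gives part of these in full. The peak called in opposite directions is also one of the 4. Alternatives were other scalings, DESeq2, no count filter, thinning to 456770 counts, a fit of the compared groups alone, a replicate block and leaving out each library.

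Depth in peaks ran between 456770 and 3690523 counts in the 8 libraries. Reads carry no molecular identifiers here, and even counts were in excess (67.1% to 77.5% of counts from 10 to 49 in pre-HSC II, 61.6% to 71.6% in HE), so intervals and floors cover counting error only and may be too narrow if reads come in pairs. Replicate numbers did not pair the samples: same-numbered deviations from the group means correlated at -0.0468 to 0.0599.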

Additional observations from a re-analysis of the deposited data

Results flagged for a closer look

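Of 76 groups of 4 to 10 libraries checked at the named peaks, 6 had a library far from the others by Dixon's test, where chance flags about 1 in 20 groups. HE library 1 had 1.61 CPM at chr1:175817338-175817842 and 1.61 CPM at chr1:175934645-175935168, and HE library 2 had 0.681 CPM at chr8:129281881-129282189, with the other HE libraries at 0 at each of these. Each of these values stands for 2 counts. Where all other libraries are at 0 any count is flagged, so the rate of 1 in 20 does not hold there. Pre-HSC II library 4 had 26.7 CPM at chr8:8993780-8995516, where the others of its group had 13.1 to 15.0 CPM. HE library 4 had 37.1 CPM at chr2:85120517-85122195, where the others had 102 to 115 CPM. E9.5 HE library 3 had 2.28 CPM at chr10:45540944-45541330, where the others had 3.53 to 3.69 CPM.

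The E10.5 change differed from the E9.5 change at 19 of the named peaks in the interaction test (edgeR, adjusted p of 0.05). Most of these were named for their E10.5 change, which the interaction contains, so their number is not independent of that choice. The differences in log2 fold change were positive at chr8:129281881-129282189 (5.37), chr15:103284006-103284428 (4.81), chr3:148425106-148426455 (3.29) and chr10:45540944-45541330 (5.68). They were negative at chr10:74826194-74828242 (-1.83), chr17:10582608-10584086 (-3.17), chr18:60820717-60821920 (-4.43), chr12:59368202-59370905 (-2.01), chr8:8993780-8995516 (-1.83), chr5:76317469-76319516 (-2.31) and chr8:8801089-8802593 (-2.31). The same held at chr12:8392849-8394543 (-1.69), chr3:115411497-115413161 (-2.15), chr15:36419295-36420387 (-4.29), chr10:120901700-120902703 (-2.91) and chr2:85120517-85122195 (-2.36). At 3 peaks without counts in one group the fitted values depend on the prior count: chr19:34919090-34919723 (8.02), chr2:174262973-174263526 (10.32) and chr11:64953693-64954393 (-9.16).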

How the results depend on the processing

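The 11979 calls became 5224 (2374 higher, 2850 lower) in a fit of the compared groups alone and 3967 (1755 and 2212) of 20700 tested peaks after thinning. DESeq2 called 6706 higher, cyclic loess 6556 higher and 4032 lower, and total counts 4781 lower. Without 1 library the calls ranged between 7876 (without HE 3) and 14607 (without HE 4), the higher ones between 2775 and 4317 and the lower ones between 5101 and 10290. Replicate numbers did not pair the samples, and 1 of 4 samples correlated best with its own number. With the number as a block 4396 peaks were called (2022 higher, 2374 lower). The 219 interaction calls became 544 with DESeq2, 47 in the groups alone, 44 with the block, 58 thinned, 1298 without HE libraries 1 and 4 (chosen after seeing the data) and 43 to 640 without 1 library. In level classes 2, 3 and 4 the medians were 0.17, 0.33 and 0.24 with RLE, 0.24, 0.40 and 0.31 with total counts, 0.17, 0.40 and 0.36 with cyclic loess and -0.83, -0.70 and -0.080 thinned, where class 1 was at -1.18 and 135, 465, 1246 and 5544 peaks of classes 1 to 4 still passed the filter. Class 5 was at -0.14, -0.077, 0.14 and -0.024 in that order. Of peaks of at least 2000 bp, the higher ones numbered 96 with RLE, 122 with total counts, 302 with loess, 105 thinned and 67 without HE libraries 1 and 4, and the lower ones 589, 513, 217 and 370 in the first 4 of these. Of narrower peaks, loess called 6254 higher and 3815 lower, thinning 1650 and 1842, and total counts 4268 lower. Called in the same direction at E9.5 were 66 higher and 110 lower peaks thinned, 119 lower ones in the groups alone, and 540 higher and 1062 lower ones without HE libraries 1 and 4. The cause of these shifts was not tested. Of the 30 peaks named by the E10.5 comparison, 3 results of 540 passed no longer: chr2:148699932-148702116 with the block (adjusted p 0.0711) and chr14:19070292-19072490 with the block (0.0834) and cyclic loess (0.220), and none turned its direction. Of the 8 named by the interaction, 3 lost the call: chr19:34919090-34919723 thinned (0.0789), and chr10:45540944-45541330 (0.0614) and chr2:174262973-174263526 (0.0504) with the block. At 456770 counts, 3 counts are 6.57 CPM, which limits what a 0 in pre-HSC II shows.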
